A study of Mus musculus with 9 samples.

Results

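Zfp871 knockdown was compared directly with Srrm4 knockdown in N2A cells, a mouse neuroblastoma line, to see how losing a zinc finger protein differs from losing a splicing factor. The comparison holds 4 of the 9 libraries of the series, 2 transfected with a small interfering RNA pool against Zfp871 (siZfp871) and 2 with a pool against Srrm4 (siSrrm4). All 4 were chosen by their labels alone, and no control library enters the contrast. PolyA RNA was sequenced 48 hours after lipid transfection of wild-type N2A cells, and gene counts and splicing were taken from the same libraries. The 2 control libraries of the same experiment, transfected with a non-targeting pool, enter the fits only to share 1 estimate of the spread, and their values are given after those of the knockdowns.

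Srrm4 (also called nSR100) is a neuronal SR-related protein that binds upstream of short exons and promotes their inclusion. Its best known targets are microexons, cassette exons of 3 to 27 nt that neurons include and most other cells skip. Zfp871 encodes a protein with zinc fingers, a fold that many transcription factors use to bind DNA. Neuroblastoma lines descend from the sympathetic lineage and express neuronal genes, which makes them a common system for neuronal splicing.

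Total counts were 44228278 and 51271599 in the siZfp871 libraries a and b, and 44186088 and 61159670 in the siSrrm4 libraries a and b. Pairs of values below follow the same order of letters. The labels number the replicates but do not say that they are separate cultures, so the p-values rest on differences between libraries that could be technical. Each target was hit by 1 pool of small interfering RNAs, so loss of the target and any other effect of its pool cannot be told apart. The labels name 2 extraction kits without tying either to a library. Immune markers summed to 0.402 to 0.706 CPM (counts scaled to the library total and its TMM factor) in the 4 libraries, with 6 of 9 markers at 0, including Ptprc and Cd3e. Glial markers summed to 12.8 to 17.1 CPM in siZfp871 and 11.6 to 15.8 CPM in siSrrm4. Epithelial markers summed to 29.4 to 32.8 CPM in siZfp871 and 32.01 to 37.3 CPM in siSrrm4.

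Each knocked-down gene was lower in its own knockdown than in the other one, by unequal amounts. Zfp871 (ENSMUSG00000024298) had 7.17 and 5.08 CPM in siZfp871 against 22.8 and 23.7 CPM in siSrrm4. The libraries did not overlap, and the log2 fold change was -1.93 (SE 0.25, edgeR quasi-likelihood adjusted p = 0.0122). Srrm4 (ENSMUSG00000063919) had 44.9 and 53.7 CPM in siZfp871 against 28.3 and 26.1 CPM in siSrrm4, with no overlap. Its log2 fold change was 0.86 (SE 0.19, edgeR adjusted p = 0.0399), which is 1.81-fold. The control libraries held 66.8 and 96.7 CPM of Srrm4, above all 4 knockdown libraries, so the contrast is between a lower and a lowest level of Srrm4. They held 17.6 and 26.2 CPM of Zfp871, a range that takes in both siSrrm4 libraries. The call for Srrm4 was lost when any 1 of the 4 knockdown libraries was left out, where the log2 fold change was 0.74 to 0.99. The call for Zfp871 was lost without siZfp871 a (-2.19), siZfp871 b (-1.68) or siSrrm4 b (-1.90).

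Among the relatives of Srrm4, its paralog Srrm3, which also promotes microexon inclusion, rose as well. Srrm3 had 30.8 and 35.1 CPM in siZfp871 against 24.2 and 23.4 CPM in siSrrm4 (log2 fold change 0.47, SE 0.11, edgeR adjusted p = 0.0413). Srrm1, a splicing coactivator, had 404 and 426 CPM in siZfp871 against 327 and 343 CPM in siSrrm4, and did not pass (0.31, edgeR adjusted p = 0.0644). Srrm2, a large scaffold of nuclear speckles, had 585 and 748 CPM against 568 and 780 CPM, so its groups overlapped. Srrm3 and Srrm4 thus both rose, and in both the control libraries lay above siZfp871.

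Expression separated the knockdowns over many genes and in both directions. Of 12378 genes tested, 684 (5.53%) rose and 690 (5.57%) fell in siZfp871 relative to siSrrm4 at an edgeR adjusted p under 0.05. Of these, 126 rose and 180 fell at least 2-fold. In all 1374 called genes the libraries of the groups did not overlap. Over all tested genes the groups stood apart with siZfp871 higher in 29.1% and with siZfp871 lower in 30.3%. The median log2 fold change of all tested genes was -0.011. The counts rest on having 2 libraries per arm: without siZfp871 a, siZfp871 b or siSrrm4 b the edgeR test called 0 genes, with 2720, 2245 and 2481 at an unadjusted p under 0.05, and without siSrrm4 a it called 530. DESeq2, run on the 6 libraries, called 2422.

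**Figure D1:**
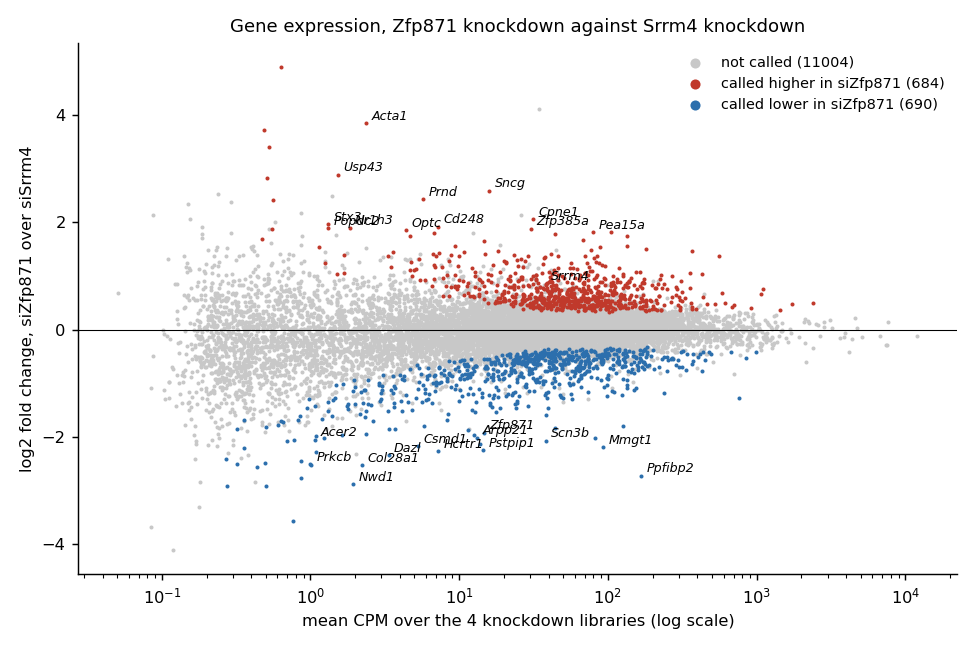
Mean CPM over the 4 knockdown libraries (log scale, x axis) against the log2 fold change of siZfp871 over siSrrm4 (y axis), 1 point per tested gene, with called genes in colour and the named genes written out. The 684 higher and 690 lower calls spread over the whole range of expression, and Ppfibp2, at -2.72, lies furthest right of the 12 genes named as lower by size.

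For most called genes the control mean lay between the means of the knockdowns. Of the 684 higher genes, 513 had a control mean between the means of both knockdowns, 127 above both and 44 below both. On a log2 scale the control mean lay nearer to siZfp871 for 465 of them and nearer to siSrrm4 for 219. Of the 690 lower genes, 506 had a control mean between the knockdowns, and it lay nearer to siZfp871 for 293 and nearer to siSrrm4 for 397. The contrast therefore mixes genes that stood apart from control in siSrrm4 with genes that stood apart from control in siZfp871.

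The highest fold among the genes named by size was that of a muscle actin. Acta1 (ENSMUSG00000031972), the alpha-actin of skeletal muscle, had 3.69 and 5.12 CPM in siZfp871 against 0.287 and 0.318 CPM in siSrrm4. It was 14.4-fold higher (log2 fold change 3.85, SE 0.30, edgeR adjusted p = 0.00865), from 165 and 258 counts in siZfp871 against 13 and 19 in siSrrm4. The control libraries held 0.281 and 0.292 CPM, about the siSrrm4 level. Prnd, which encodes the prion-like protein doppel, showed the same layout, with 8.56 and 10.7 CPM in siZfp871, 1.37 and 2.17 CPM in siSrrm4 and 1.015 and 1.46 CPM in control (log2 fold change 2.43, SE 0.31, edgeR adjusted p = 0.0119). Nr1h3, the oxysterol receptor LXR alpha, had 2.86 and 2.92 CPM in siZfp871, 1.04 and 0.518 CPM in siSrrm4 and 0.95 and 0.793 CPM in control (1.91, edgeR adjusted p = 0.0288). The SNARE protein Stx3 (1.97), the deubiquitinase Usp43 (2.89) and the membrane protein Popdc2 (1.89) also rose, with control means close to siSrrm4. In these 6 genes it was siZfp871 that stood apart.

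In other genes that rose, siSrrm4 was the group that stood apart. Pea15a, a death effector domain protein that binds ERK, had 117 and 129.8 CPM in siZfp871, 38.5 and 31.5 CPM in siSrrm4 and 101.7 and 103 CPM in control. Its log2 fold change was 1.82 (SE 0.12, edgeR adjusted p = 0.00792). Zfp385a, a zinc finger protein, had 45.7 and 49.9 CPM in siZfp871, 16.4 and 9.76 CPM in siSrrm4 and 53.4 and 40.5 CPM in control (1.88, SE 0.26, edgeR adjusted p = 0.0144). The phospholipid-binding protein Cpne1 had 53.2 and 48.0 CPM in siZfp871, 15.3 and 9.02 CPM in siSrrm4 and 45.4 and 38.6 CPM in control (2.06, SE 0.25, edgeR adjusted p = 0.0112). Gamma-synuclein, encoded by Sncg and abundant in sympathetic and sensory neurons, had 29.7 and 24.8 CPM in siZfp871, 6.21 and 2.92 CPM in siSrrm4 and 25.5 and 16.4 CPM in control (2.59, SE 0.39, edgeR adjusted p = 0.0171). The matrix protein gene Optc (1.86) and the surface glycoprotein gene Cd248 (1.92) completed the 12 and had control means between those of the knockdowns.

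Among the genes that fell, Ppfibp2, which encodes the scaffold protein liprin beta 2, stood out for its many reads. It had 56.4 and 32.0 CPM in siZfp871, 313 and 271 CPM in siSrrm4 and 311 and 265 CPM in control. The level in siZfp871 was 6.61-fold lower than in siSrrm4 (log2 fold change -2.72, SE 0.27, edgeR adjusted p = 0.00888). Scn3b, the beta 3 subunit of voltage-gated sodium channels, had 15.97 and 13.5 CPM in siZfp871, 49.5 and 74.1 CPM in siSrrm4 and 51.3 and 72.5 CPM in control (-2.07, SE 0.25, edgeR adjusted p = 0.0112). Nwd1, which encodes a NACHT and WD repeat protein, had 0.603 and 0.318 CPM in siZfp871, 3.38 and 3.41 CPM in siSrrm4 and 2.94 and 3.38 CPM in control (-2.89, SE 0.33, edgeR adjusted p = 0.0109). The germ cell RNA-binding protein Dazl (-2.34), the kinase gene Prkcb (-2.52) and the ceramidase gene Acer2 (-2.06) also fell. Each of these 6 genes had its control libraries on the siSrrm4 side.

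The other lower genes were split by the control in another way, with siSrrm4 above it. Hcrtr1, the type 1 orexin receptor, had 2.41 and 2.54 CPM in siZfp871, 9.92 and 14.0 CPM in siSrrm4 and 2.48 and 3.92 CPM in control (log2 fold change -2.27, SE 0.29, edgeR adjusted p = 0.0119). Csmd1, a membrane protein with complement control domains, had 1.83 and 2.03 CPM in siZfp871, 8.09 and 9.36 CPM in siSrrm4 and 2.81 and 3.40 CPM in control (-2.18, SE 0.20, edgeR adjusted p = 0.00888). The collagen gene Col28a1 had 0.536 and 0.775 CPM in siZfp871, 3.05 and 4.54 CPM in siSrrm4 and 0.518 and 0.522 CPM in control (-2.53, SE 0.33, edgeR adjusted p = 0.0124). In these 3 genes siSrrm4 stood apart. Mmgt1, a subunit of the endoplasmic reticulum membrane complex, lay on opposite sides of control, with 36.2 and 30.5 CPM in siZfp871, 134 and 172 CPM in siSrrm4 and 88.9 and 113 CPM in control (-2.20, SE 0.18, edgeR adjusted p = 0.00865). The cytoskeletal adaptor gene Pstpip1 (-2.25) and the phosphoprotein gene Arpp21 (-2.01) had the same layout as Mmgt1.

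**Figure D2:**
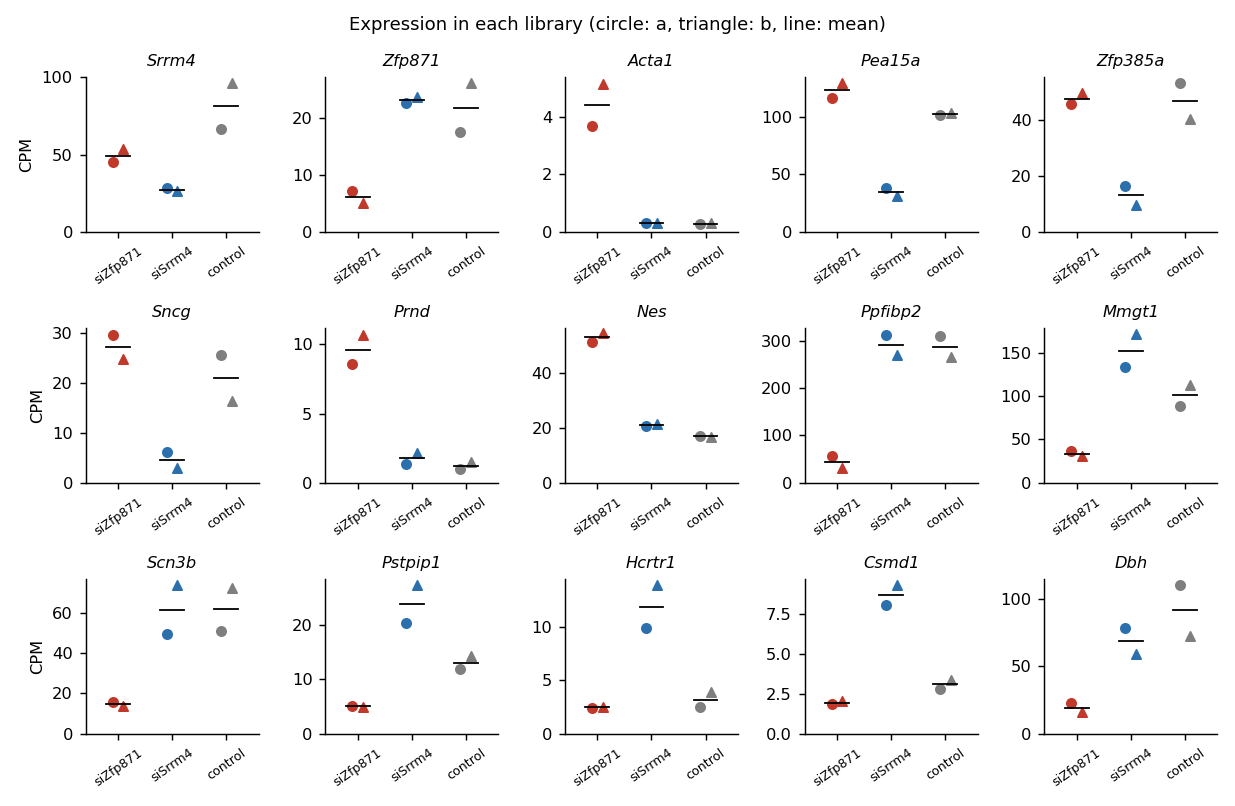
CPM in each library for 15 genes, with siZfp871 left, siSrrm4 next and control right in each panel; circles are libraries a, triangles libraries b and lines the means. Acta1, Prnd and Nes stand apart in siZfp871, Pea15a, Zfp385a and Sncg in siSrrm4, and Mmgt1 lies on opposite sides of control.

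Genes of the actin cytoskeleton and of muscle formed the list with the largest share of higher calls, apart from the 4 genes of the Srrm family. Of 37 tested members of a list of contractile genes and targets of serum response factor, 10 rose and 0 fell, against 5.53% and 5.57% of all tested genes. Of its 37 members, 29 had a fold change above 0 and 8 below, and the list's median log2 fold change was 0.53, with 0.334 to 0.676 when 1 library was left out. Without siSrrm4 a 5 members were called, and without siZfp871 a, siZfp871 b or siSrrm4 b 0. Besides Acta1, the cardiac alpha-actin Actc1 rose, with 1.25 and 1.21 CPM in siZfp871 against 0.0663 and 0.0167 CPM in siSrrm4 (log2 fold change 4.90, SE 0.56, edgeR adjusted p = 0.0109). That is 117 counts in siZfp871 against 4 in siSrrm4, a ratio of 32.3 with an exact 95% interval of 12.3 to 120, which covers counting error only. Actin genes are near-identical in their coding sequence, and the sources used here do not say how reads shared among them were counted.

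The other 8 contractile members that rose had higher counts. Srf, the transcription factor that gives the list its name, had 135 and 198 CPM in siZfp871 against 84.6 and 101.9 CPM in siSrrm4 (log2 fold change 0.84, SE 0.20, edgeR adjusted p = 0.0451). The control libraries held 85.1 and 96.3 CPM, as low as siSrrm4. Pdlim3, a PDZ and LIM domain protein of the Z-disc, had 109 and 133 CPM in siZfp871, 33.7 and 59.9 CPM in siSrrm4 and 33.5 and 43.3 CPM in control (1.37, edgeR adjusted p = 0.0337). Its relative Pdlim7 (1.03), the filamin gene Flnc (1.08), the actinin gene Actn1 (1.05) and the tropomyosin genes Tpm1 (0.91), Tpm2 (1.02) and Tpm4 (0.67) followed. Tpm4 alone reached 1311 and 1318 CPM in siZfp871 against 770 and 887 CPM in siSrrm4, with 712 and 794 CPM in control. For these genes siZfp871 was again the higher side, and control lay near siSrrm4 for Srf, Pdlim3, Pdlim7, Tpm1 and Tpm4.

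Serum response factor binds the CArG box, CC and GG around 6 bases that are each A or T. The sequences directly before the start of the 3 members that rose and hold such a box are shown since these genes moved together. Each line gives the last 120 bases before the gene start from RefSeq promoters (GRCm38.p6), all on the minus strand, with the box in capitals.
Acta1, chr8:123894776-123894895: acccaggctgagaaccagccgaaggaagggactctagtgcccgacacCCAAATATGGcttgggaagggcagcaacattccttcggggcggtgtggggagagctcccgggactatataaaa
Actc1, chr2:114052876-114052995: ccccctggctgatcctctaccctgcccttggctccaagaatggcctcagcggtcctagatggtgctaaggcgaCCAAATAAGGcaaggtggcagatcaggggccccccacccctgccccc
Srf, chr17:46556163-46556282: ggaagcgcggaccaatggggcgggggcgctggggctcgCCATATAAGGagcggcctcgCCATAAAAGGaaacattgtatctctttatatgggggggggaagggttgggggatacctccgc
The box began 73 bases before the start in Acta1, 47 in Actc1, and 82 and 62 in Srf, which holds 2 boxes. The pattern reads as itself on the other strand, so 1 search covered both. Of the 10 members that rose, 3 held a box within 250 bases before the start. Of all 27025 genes with a promoter in the table, 1.62% did, and of the 30 tested list members with a promoter, 8 did. A match is a description of letters, and binding was not measured. The list and the motif were chosen with values of these genes known.

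DNA replication genes held higher calls only, of smaller size. Of 48 tested members 11 rose (22.9%, against 5.53% of all tested genes) and 0 fell, 5 had a fold change below 0, and the list's median log2 fold change was 0.264, with 0.187 to 0.334 when 1 library was left out. Without siSrrm4 a 1 member was called, and without siZfp871 a, siZfp871 b or siSrrm4 b 0. Rrm2, a subunit of the ribonucleotide reductase that makes deoxynucleotides, had 176 and 184 CPM in siZfp871 against 90.2 and 100.6 CPM in siSrrm4 (0.91, SE 0.10, edgeR adjusted p = 0.00981). Tyms, the thymidylate synthase, had 86.2 and 101.9 CPM in siZfp871 against 49.5 and 57.3 CPM in siSrrm4 (0.82, SE 0.15, edgeR adjusted p = 0.027). The sliding clamp gene Pcna (0.61), the helicase subunit Mcm2 (0.49), the licensing factor Cdc6 (0.54) and the origin proteins Orc1 (0.64) and Orc5 (0.65) were among the others, with Gins2, Gins3, Prim1 and Rfc5. Control values of Rrm2 were 160 and 175 CPM and those of Tyms 70.8 and 88.6 CPM, nearer to siZfp871. Orc5 differed in this, with 64.0 and 68.9 CPM in siZfp871, 41.4 and 43.5 CPM in siSrrm4 and 43.6 and 47.2 CPM in control, and the control mean of Orc1 also lay nearer to siSrrm4. Of 33 tested genes of mitosis, edgeR called 0 in either direction, with 5 at an unadjusted p under 0.05, and DESeq2 called 4 higher and 1 lower, at a median of 0.102.

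Neuronal genes held calls in both directions. Of 49 tested members 8 rose and 6 fell, 16.3% and 12.2%, against 5.53% and 5.57% of all tested genes. A fold change above 0 was seen in 19 members and one below 0 in 30. The list's median log2 fold change was -0.125, with -0.143 to -0.108 when 1 library was left out. Reep2, which shapes the endoplasmic reticulum of neurons, had 64.9 and 71.3 CPM in siZfp871, 26.2 and 13.7 CPM in siSrrm4 and 69.9 and 61.9 CPM in control (1.78, SE 0.29, edgeR adjusted p = 0.0196). The neurofilament gene Nefh had 141 and 141 CPM in siZfp871, 76.4 and 75.5 CPM in siSrrm4 and 148 and 155 CPM in control (0.89, SE 0.08, edgeR adjusted p = 0.00865). Complexins, which clamp and trigger vesicle fusion, rose as Cplx1 (0.95) and Cplx2 (0.75), as did Syn1 (0.81), Napb (0.94), Mtap2 (0.65) and Sncg. Control lay above both knockdowns for Cplx2, Napb and Mtap2 and just above them for Cplx1, so these genes were lower than control in both. Cplx2 had 52.4 and 53.9 CPM in siZfp871, 35.5 and 27.5 CPM in siSrrm4 and 105 and 92.2 CPM in control. For Syn1 and Sncg the control mean lay between the knockdowns. In Reep2 and Nefh the control libraries stood with siZfp871, and siSrrm4 was the lower group.

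The neuronal genes that fell included genes of axon adhesion. L1cam (log2 fold change -0.56) and Nrcam (-0.69), adhesion molecules of axons, fell with Ank3 (-0.54), which anchors them, and with Syn2 (-0.56) and Scn3b. L1cam had 239 and 241 CPM in siZfp871 against 345 and 364 CPM in siSrrm4, below the control values of 376 and 428 CPM. These 5 were lower in siZfp871 than in siSrrm4 without overlap. Of 31 tested targets of the neuronal gene repressor REST, 7 rose (22.6%) and 2 fell (6.45%), against 5.53% and 5.57% of all tested genes. Those that rose were Cplx1, Cplx2, Syn1, Elavl4, Syt4, Srrm3 and Srrm4, several of which also sit on the neuronal list. Srrm4 is the target of the siSrrm4 pool, so its place among the 7 is the knockdown itself.

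Genes of the sympathetic lineage held more lower than higher calls, with 2 higher (6.25%) and 5 lower (15.6%) of 32 tested, against 5.53% and 5.57% of all tested genes. The median log2 fold change was -0.231, with -0.408 without siZfp871 a, and without siZfp871 a, siZfp871 b or siSrrm4 b 0 members were called. Dbh, the enzyme that makes noradrenaline from dopamine, had 22.9 and 15.9 CPM in siZfp871, 78.5 and 59.1 CPM in siSrrm4 and 110 and 72.9 CPM in control (-1.83, SE 0.27, edgeR adjusted p = 0.0169). The vesicular monoamine transporter Slc18a2 had 56.9 and 49.3 CPM in siZfp871 against 84.7 and 87.0 CPM in siSrrm4 (-0.69, SE 0.10, edgeR adjusted p = 0.0163). Ddc (-0.99), which makes dopamine, the GDNF receptor gene Gfra1 (-1.44) and Gata3 (-0.46), a transcription factor of the lineage, fell as well. Insm1 (1.34), a zinc finger factor of neuroendocrine precursors, and Lin28a (0.51) rose. Of 23 tested genes of neural progenitors 3 rose (13.0%) and 1 fell (4.35%). Nes, the progenitor intermediate filament nestin, had 51.4 and 54.5 CPM in siZfp871, 20.6 and 21.5 CPM in siSrrm4 and 17.1 and 16.6 CPM in control (1.33, SE 0.09, edgeR adjusted p = 0.00792), and Id3 (1.17) and Msi1 (1.02) rose, while Prom1 (-1.57) fell.

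Some splicing regulators themselves differed between the knockdowns. Of 30 tested tissue-regulated splicing factors 5 rose (16.7%) and 1 fell (3.33%), against 5.53% and 5.57% of all tested genes. The median log2 fold change was 0.192, with 0.139 to 0.21 when 1 library was left out. The 5 include Srrm4, the target of the siSrrm4 pool. Besides Srrm4 and Srrm3, the RNA-binding protein Msi1 had 104 and 121 CPM in siZfp871 against 60.8 and 50.4 CPM in siSrrm4 (1.02, SE 0.13, edgeR adjusted p = 0.0131). The neuronal Hu protein Elavl4 (0.50) and Rbm38 (0.75) rose too. Ptbp2, the neuronal polypyrimidine tract protein, was the 1 that fell, with 92.1 and 98.9 CPM in siZfp871, 130 and 180 CPM in siSrrm4 and 147 and 171 CPM in control (-0.70, SE 0.17, edgeR adjusted p = 0.0473). The other splicing lists had shares of higher calls near or below that of all tested genes. Of 17 tested SR proteins and relatives only the kinase gene Srpk1 (0.42) rose (5.88%), and of 40 core spliceosome genes only Snrpa1 (0.38) did (2.5%). Among 28 hnRNP genes Hnrnpab (0.41) and Hnrnph1 (0.48) rose (7.14%) and Hnrnph2 (-0.78), a near copy of Hnrnph1, fell (3.57%).

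Other lists held few calls or calls in both directions. The shares of all tested genes, for comparison, were 5.53% higher and 5.57% lower. Of 41 tested extracellular matrix genes 3 rose (7.32%, Itga1, Mmp15 and Timp2) and 6 fell (14.6%). Among the 6 was Fn1, fibronectin, with 264 and 233 CPM in siZfp871 against 424 and 412 CPM in siSrrm4 (-0.75, SE 0.10, edgeR adjusted p = 0.0129). The control libraries held 540 and 588 CPM of Fn1, above both knockdowns. Fn1 makes up most of a mesenchymal marker sum of 294.6 and 336 CPM in siZfp871 against 428 and 420.0 CPM in siSrrm4, while Col3a1, Lum, Prrx1, Thy1 and Twist1 were at 0 in all 4. The lower sum in siZfp871 is that of Fn1, since the rest of the sum was higher in siZfp871 than in siSrrm4. Of 5 tested mesenchymal markers 2 had a fold change above 0 and 3 below. The part of other cells in this was not tested. In bulk RNA, fewer cells of a type and less RNA per cell cannot be told apart. Among 36 axon guidance genes the plexin genes Plxnb2 (-1.22), Plxnc1 (-1.15) and Plxnd1 (-1.03) fell (8.33%), and the receptor gene Neo1 (1.00) and Slit3 (0.76) rose (5.56%). Of 34 p53 and apoptosis genes 5.88% rose and 8.82% fell. Mdm2, which restrains p53, rose, with 136 and 131 CPM in siZfp871 against 64.9 and 51.3 CPM in siSrrm4 (1.20, SE 0.13, edgeR adjusted p = 0.00941), and so did Gadd45g (0.81). Apaf1 (-1.22), Ccng1 (-0.81) and Phlda3 (-0.55) fell. Among 40 immediate early genes Fos (1.39), Phlda1 (1.18) and Klf4 (0.76) rose (7.5%) and Klf6 (-0.56) fell (2.5%).

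Genes of basic metabolism and other zinc finger genes held few calls. Of 52 tested genes of oxidative phosphorylation only Uqcrh fell, and of 64 cytosolic ribosomal protein genes 1 rose and 1 fell, with medians of -0.118 and -0.147. Ribosomal protein genes have many processed copies, so single members are uncertain. Of 36 glycolysis and hypoxia genes edgeR called 0, with 1 at an unadjusted p under 0.05, DESeq2 called 1 lower, and the median of -0.25 ran from -0.714 to 0.45 when 1 library was left out. Of 329 tested genes named Zfp and a number, 7 rose and 9 fell, 2.13% and 2.74%, both below the shares of all tested genes. Host genes of known neuronal microexons held more calls: of 86 tested, 7 rose (8.14%) and 11 fell (12.8%), at a median of -0.035. The shares of all tested genes were 5.53% and 5.57%.

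**Figure D3:**
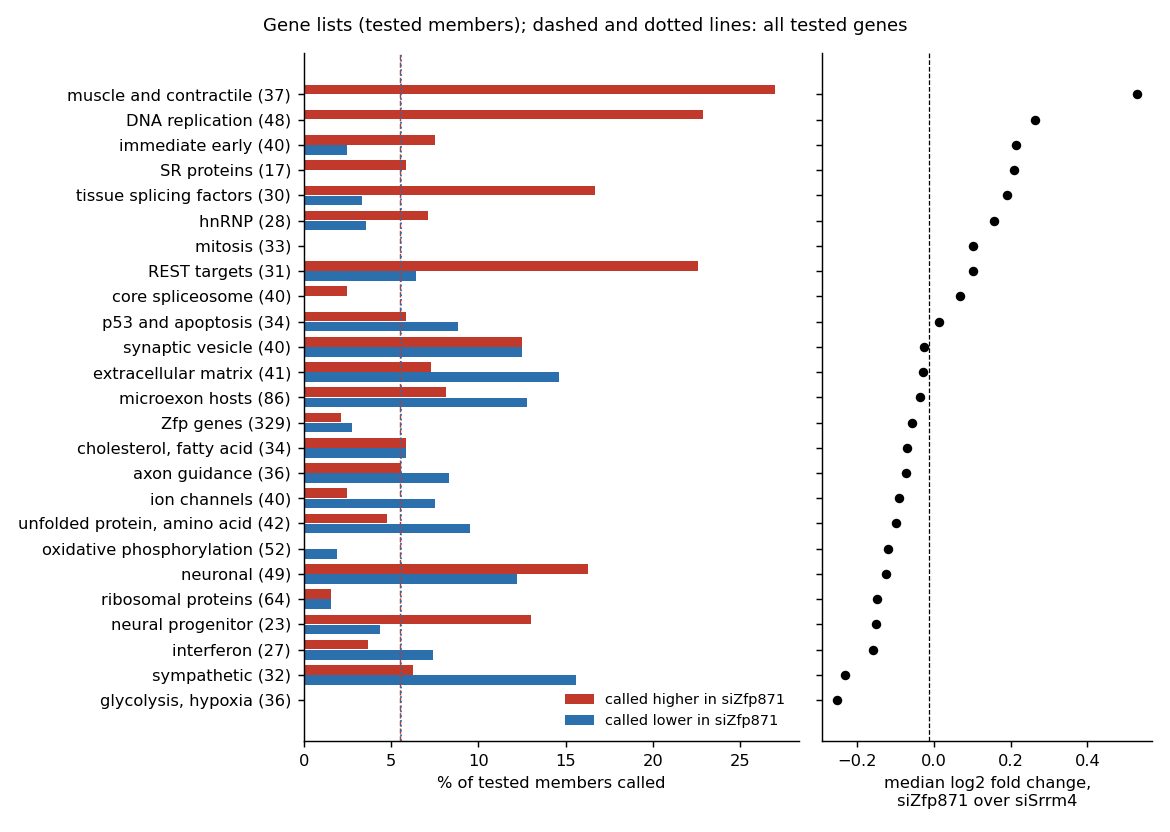
Share of tested members called higher or lower in siZfp871 (left, percent, with all tested genes as vertical lines) and median log2 fold change of siZfp871 over siSrrm4 (right) for 25 gene lists, with the number tested in brackets. Contractile genes (10 of 37 higher) and replication genes (11 of 48 higher) have higher calls and no lower ones, while the neuronal list has calls on both sides.

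In splicing, more microexons had higher than lower inclusion in siZfp871 relative to siSrrm4, and longer exons showed the reverse. Inclusion was taken as percent spliced in (PSI), 100 times inclusion reads over inclusion and exclusion reads. Among 20266 cassette exons tested, 510 were microexons. Of these, 58 (11.4%) had a mean PSI at least 10 points higher in siZfp871 and 22 (4.31%) at least 10 points lower. Differences of that size without overlap between the libraries of the groups were found, higher in siZfp871, in 11.2% of microexons against 1.53% of all exons, and, lower in siZfp871, in 3.73% against 2.66%. Of the 19756 longer exons 314 (1.59%) were higher by that much and 615 (3.11%) lower. The classes also differed in level, with a median PSI in siSrrm4 of 26.2 for microexons and 95.49 for longer exons. A longer exon at that median has no room to rise by 10 points. How much of the gap in shares goes with this level was not tested.

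The quasi-likelihood test of edgeR called 0 exons in either direction (0.0% of 20266), with 1080 at an unadjusted p under 0.05. limma on the logit of PSI also called 0. A likelihood ratio test on the same reads, which takes the dispersion of each exon as known and so calls more, passed 79 exons higher (0.39%) and 90 lower (0.444%), at an adjusted p under 0.05 and a difference of at least 10 points. A quasi-Poisson variance, tried after seeing the data, passed 40 exons higher (0.197%) and 46 lower (0.227%). Of the microexons the likelihood ratio test passed 29 higher (5.69%) and 5 lower (0.98%), and of longer exons 50 higher and 85 lower. Without siZfp871 b it passed 63 exons and without siSrrm4 b 85, with 10 and 9 microexons higher and 1 and 2 lower. The values of single exons below are given as measured, mostly with the adjusted p of the likelihood ratio test. None passed the quasi-likelihood test, whose adjusted p was 0.176 to 0.853 for them.

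Microexon sequences are printed for 8 exons whose values are described next, chosen after those values were seen. Each was found in GENCODE M21 transcripts by gene, exon length and the lengths of both neighbouring introns. Of 22 microexons looked up, 15 matched. Positions are those of the files (mm9), and the exon stands in capitals between 9 bases of the exons around it.
Chchd3, 15 nt, chr6:32843392-32843406, minus strand: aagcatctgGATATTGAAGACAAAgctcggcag
Spna2, 15 nt, chr2:29869678-29869692, plus strand: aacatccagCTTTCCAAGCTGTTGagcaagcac
Myo5a, 9 nt, chr9:75035329-75035337, plus strand: caacccaagGATGACAAGaatacaatg
Kif1b, 18 nt, chr4:148639454-148639471, minus strand: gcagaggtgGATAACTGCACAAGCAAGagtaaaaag
Vav2, 15 nt, chr2:27155950-27155964, minus strand: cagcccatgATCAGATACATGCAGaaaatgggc
Vav2, 15 nt, chr2:27140359-27140373, minus strand: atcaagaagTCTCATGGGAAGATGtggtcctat
Clasp2, 24 nt, chr9:113787868-113787891, plus strand: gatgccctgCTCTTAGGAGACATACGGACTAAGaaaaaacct
Dync2h1, 21 nt, chr9:7045349-7045369, minus strand: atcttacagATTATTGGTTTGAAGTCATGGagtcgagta
All 8 have a length divisible by 3, so their inclusion keeps the reading frame. Of the 58 microexons at least 10 points higher, 84.5% have such a length, as do 81.8% of the 22 lower ones and 75.9% of all 510.

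The smallest p of the exon test belonged to the 15 nt exon of Chchd3, which encodes a scaffold protein of mitochondrial cristae. Its PSI was 97.0 and 95.9 in siZfp871 against 81.7 and 78.5 in siSrrm4, from 952 to 1406 reads per library. The difference was 16.3 points (quasi-likelihood adjusted p = 0.176, likelihood ratio adjusted p = 7.055e-18). The control libraries both reached about 99, and siSrrm4 was the group furthest from them. Spna2, alpha II spectrin of the membrane skeleton, had a PSI of 70.1 and 68.8 for its 15 nt exon in siZfp871, 44.02 and 39.6 in siSrrm4 and 73.3 and 71.3 in control (27.7 points, likelihood ratio adjusted p = 3.406e-24, quasi-likelihood 0.529). Here siZfp871 lay close to control and siSrrm4 was the group that stood apart.

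In most of the microexons named here, control lay above siZfp871 and siZfp871 above siSrrm4. Myo5a, an actin motor that carries vesicles, had a PSI of 87.1 and 87.4 for its 9 nt exon in siZfp871, 61.9 and 54.5 in siSrrm4 and 98.03 and 98.5 in control (29.0 points, likelihood ratio adjusted p = 9.944e-11). Kif1b, a kinesin motor, had 85.3 and 84.4 for an 18 nt exon in siZfp871, 59.1 and 62.1 in siSrrm4 and 97.8 and 96.6 in control (24.3 points, likelihood ratio adjusted p = 1.752e-08). Clasp2, which stabilises microtubule ends, had 25.0 and 37.97 for its 24 nt exon in siZfp871, 10.4 and 8.48 in siSrrm4 and 75.5 and 80.5 in control (22.03 points, likelihood ratio adjusted p = 0.00494). The 3 motor and microtubule genes thus share the order, while the distance from control differs. In Clasp2, siZfp871 covered most of the way from control to siSrrm4, and in Kif1b less than that.

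Vav2, an exchange factor for small GTPases, carried 2 microexons with the same order. The PSI of the exon at 27155950 was 59.1 and 59.5 in siZfp871, 29.9 and 20 in siSrrm4 and 85.5 and 83.9 in control (34.3 points, likelihood ratio adjusted p = 5.064e-06). That of the exon at 27140359 was 50.4 and 39.6 in siZfp871, 19.7 and 17.1 in siSrrm4 and 84.4 and 79.9 in control (26.6 points, likelihood ratio adjusted p = 0.000779). Both exons stood apart in all 3 groups. The largest difference among microexons was in Dync2h1, the heavy chain of the ciliary dynein motor, whose 21 nt exon had 49.3 and 55.6 in siZfp871, 0 and 13.0 in siSrrm4 and 91.8 and 81.4 in control, from 16 to 47 reads per knockdown library (46.0 points, likelihood ratio adjusted p = 0.00103). Slit2, a secreted axon guidance cue, went against the order, with 41.6 and 48.8 for a 24 nt exon in siZfp871, above the control values of 37.2 and 37.0, and 25.4 and 14.9 in siSrrm4.

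**Figure D4:**
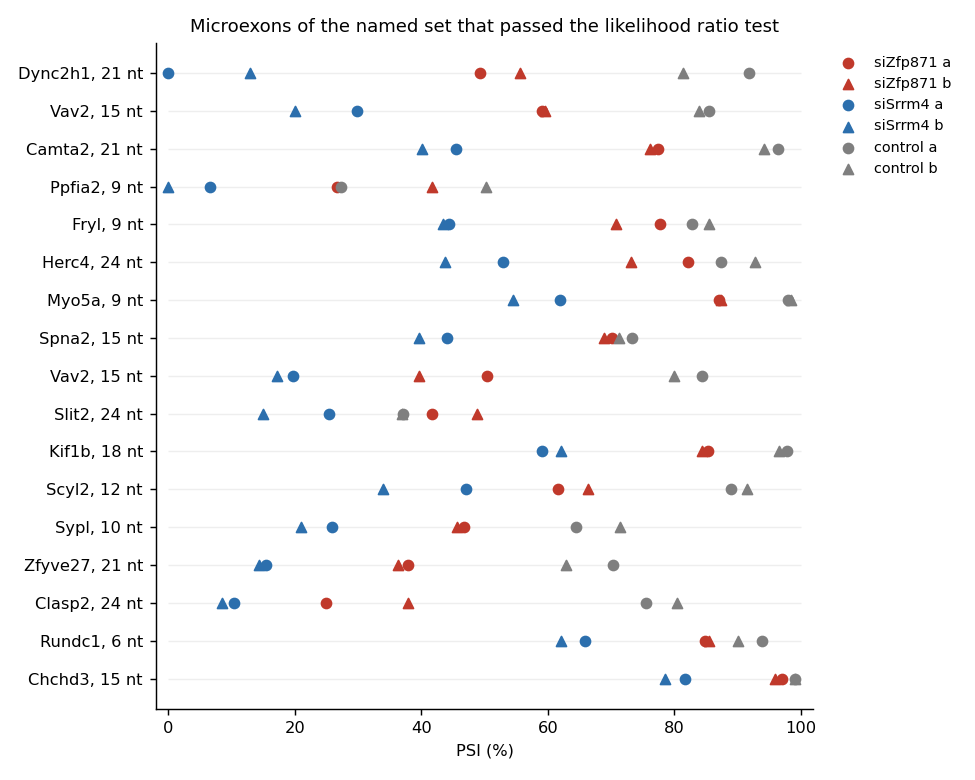
PSI in each library (x axis, percent) for 17 microexons that were at least 20 points apart or among the exons of smallest p and passed the likelihood ratio test as higher in siZfp871; circles are libraries a, triangles libraries b. In each row the siZfp871 libraries lie right of both siSrrm4 libraries, and control lies right of siZfp871 in most rows, with Slit2 and Ppfia2 as exceptions.

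Most of the set had control highest and siSrrm4 lowest. Of the 58 microexons at least 10 points higher in siZfp871, 50 had a control mean above both knockdowns, 7 between them and 1 below both. Their median PSI was 55.6 in siZfp871, 37.2 in siSrrm4 and 81.8 in control. Control was nearer to siZfp871 than to siSrrm4 in 53 of the 58. For the 50 with control above both, the choice of exons higher in siZfp871 fixed this in advance. Of the 314 longer exons at least 10 points higher, 77 had a control mean above both and 184 between. Over all microexons the control mean was above both knockdowns in 64.7%, and over all longer exons in 31.9%. These are counts, given without a test.

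Of the 57 higher microexons whose gene was tested, 2 lie in genes that rose and 3 in genes that fell, a share near the 11.1% called among all tested genes. Of 80 microexons in 60 listed host genes of known neuronal microexons, 19 were at least 10 points higher and 2 lower, at a median of 3.55 points, against 39 and 20 of 430 in other genes, at a median of 0.14 points. That list was written from knowledge of Srrm4 targets and is not independent evidence. The median over all 510 was 0.416 points, against -0.308 points for longer exons. By length, the share at least 10 points higher was 12.4% at 3 to 15 nt, 10.7% at 16 to 27 nt, 2.57% at 28 to 51 nt, 1.25% at 52 to 150 nt and 2.17% above that. At this size of difference the classes up to 27 nt had more higher than lower exons, and the longer classes fewer. The median PSI in siSrrm4 was 11.64, 35.4, 89.58, 95.64 and 95.95 in these classes, so the room to rise differed between them.

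**Figure D5:**
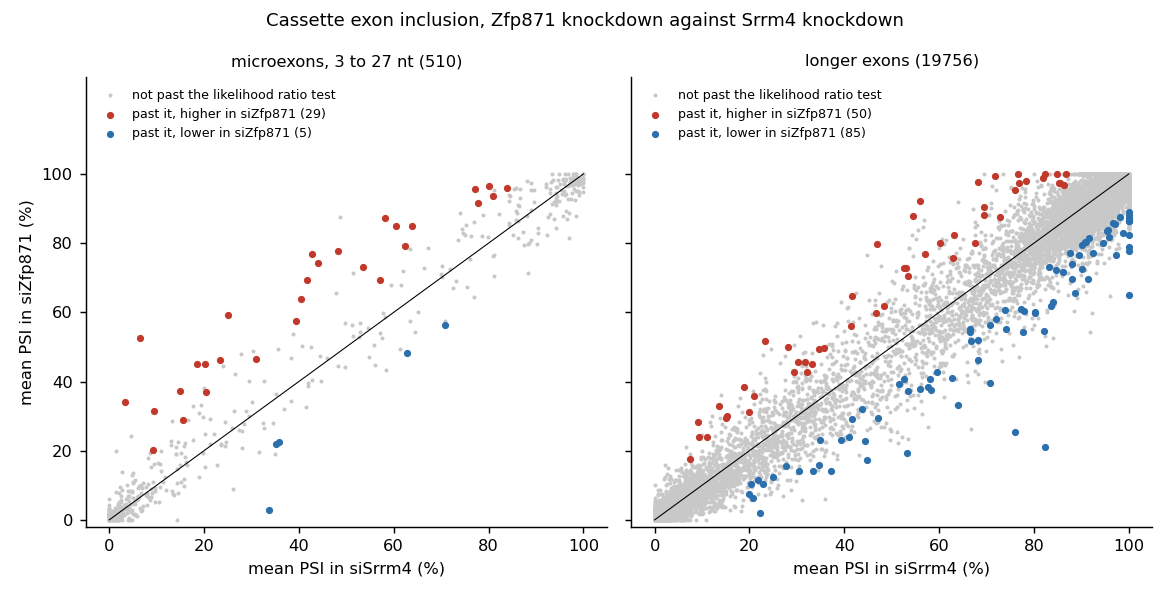
Mean PSI in siZfp871 (y axis, percent) against mean PSI in siSrrm4 (x axis, percent) for 510 microexons (left) and 19756 longer exons (right), with exons past the likelihood ratio test in colour. Left, 29 coloured points lie above the diagonal and 5 below it; right, 50 lie above and 85 below.

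Longer exons with higher inclusion in siZfp871 included exons of cytoskeletal and matrix genes. Heatr7a, a HEAT repeat gene, had a PSI of 99.1 and 100 for a 145 nt exon in siZfp871, 72.9 and 70.7 in siSrrm4 and 98.3 and 98.9 in control (27.7 points, quasi-likelihood adjusted p = 0.215, likelihood ratio adjusted p = 1.052e-23). Spag9, a scaffold for JNK signalling, had 51.2 and 52.1 for a 39 nt exon in siZfp871, 22.7 and 23.7 in siSrrm4 and 36.4 and 28.5 in control. In Heatr7a siSrrm4 stood apart from control, whereas in Spag9 the control lay between the knockdowns. Fibronectin (Fn1) had 97.3 and 97.7 for a 273 nt exon in siZfp871 and 81.7 and 88.8 in siSrrm4, and Epb4.1l3, Mprip and Rnf31 were also among the exons of smallest p.

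Exons with lower inclusion in siZfp871 included one in a splicing regulator. Ptbp2 carries a 34 nt exon whose skipping shifts the reading frame and is known to send the transcript to nonsense-mediated decay. In GENCODE M21 it reads as below, in capitals between 9 bases of its neighbours.
Ptbp2, 34 nt, chr3:119427530-119427563, minus strand: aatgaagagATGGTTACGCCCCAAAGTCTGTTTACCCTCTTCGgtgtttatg
Its PSI was 79.3 and 75.2 in siZfp871, 92.1 and 92.7 in siSrrm4 and 90.9 and 88.2 in control (-15.1 points, likelihood ratio adjusted p = 2.795e-07), and siZfp871 was the group that stood apart. The gene fell as well, as given above. Mapt, the microtubule protein tau, had 24.5 and 21.5 for an 87 nt exon in siZfp871, 38.4 and 40.1 in siSrrm4 and 26.7 and 29.9 in control (-16.2 points, likelihood ratio adjusted p = 5.235e-08). Itga6, the laminin receptor subunit, had 67.5 and 56.1 for a 130 nt exon in siZfp871, 82.7 and 84.6 in siSrrm4 and 66.2 and 66.8 in control. In Mapt and Itga6 the control mean lay nearer to siZfp871, and siSrrm4 had the highest inclusion.

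The widest differences among the lower exons named here, those of Eml5 and Ggta1, rest on few reads. Eml5, a microtubule-associated protein, had 23.1 and 18.9 for a 106 nt exon in siZfp871 against 86.7 and 78.1 in siSrrm4, from 17 to 58 reads, while its control libraries disagreed at 39.3 and 74.2. Ggta1, a glycosyltransferase gene, had 30.6 and 20.5 for a 66 nt exon in siZfp871 against 79.1 and 73.0 in siSrrm4, from 20 to 63 reads. Hnrnpa2b1, an hnRNP gene, had 26.2 and 19.6 for a 73 nt exon in siZfp871 against 48.6 and 40.0 in siSrrm4, from 543 to 1102 reads. Pkm2, the pyruvate kinase gene with mutually exclusive exons of equal length, had 47.9 and 51.7 for a 167 nt exon in siZfp871 against 61.2 and 68.8 in siSrrm4. This exon did not pass the likelihood ratio test either (adjusted p = 0.11). A 155 nt exon of Pkm2 passed it as higher in siZfp871 (19.2 points, likelihood ratio adjusted p = 0.00624), from 66 to 165 reads. Ctla2a, Tmem179b, Numa1, Arap1 and Papola completed the 12, with differences of -11.6, -21.8, -18.3, -20.1 and -18.9 points.

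Genes with an exon past the likelihood ratio test were called in expression more often than all tested genes, a difference that was not tested. Of 154 genes with an exon past the likelihood ratio test, 150 were tested for expression and 26 were called (17.3%, against 11.1% of all tested genes). They make up 1.89% of the 1374 called genes, while such an exon was held by 150 of all 12378 tested genes. Retained introns and alternative splice sites held few calls: of 28100 introns 2 rose (0.00712%) and 5 fell (0.0178%) by limma, with 1854 at an unadjusted p under 0.05. Apbb3 and Ypel4 had higher retention, and Hspb6, Rsl1, Prpf40b and Otud5, with 1 unnamed predicted gene, lower. Ypel4 rests on 10 to 17 reads per knockdown library and Rsl1 on 14.0 to 32.7, and the control libraries of Apbb3 disagreed at 39.3 and 9.43. Hspb6, a small heat shock protein gene, had 4.63 and 7.004 for a 729 nt intron in siZfp871, 80.5 and 51.01 in siSrrm4 and 35.7 and 32.7 in control (-59.9 points, limma adjusted p = 0.00148), from 19.1 to 84.1 reads. Prpf40b, a splicing factor gene, had 0 and 0 for a 196 nt intron in siZfp871 and in control, against 13.0 and 27.3 in siSrrm4 (-20.1 points, limma adjusted p = 0.0102).

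Of 12163 alternative splice sites, 1 acceptor event passed. It lies in Chchd1, which encodes a protein of the mitochondrial ribosome, and both of its competing sites were called, so 1 rose (0.00822%) and 1 fell (0.00822%). One site had a usage of 38.5 and 43.9 in siZfp871, 13.5 and 14.6 in siSrrm4 and 15.3 and 16.2 in control (27.1 points, limma adjusted p = 0.00489). The other site had 61.1 and 55.8 in siZfp871, 86.3 and 85.3 in siSrrm4 and 84.5 and 83.7 in control. Each library had 932 to 1756 reads, and siZfp871 stood apart from both other groups. A 92 nt intron of the same gene had a retention of 17.7 and 22.8 in siZfp871 against 7.71 and 6.11 in siSrrm4, and did not pass (13.3 points, limma adjusted p = 0.0619). This intron ends at 21522511, directly before the site that fell, and the site that rose lies inside it, at 21522498. Its retention and the site usage are therefore not independent measures. Without siSrrm4 a, limma called 0 splice sites.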

How the data were processed

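The authors' deposited gene table holds raw read counts per gene; its normalized columns were not used. The mouse build mm9 and the tools CASAVA 1.8 and edgeR are named per the submitters' processing notes, without their roles; no source used here gives the aligner, the counter or the vast-tools version. The primary vast-tools output, per the series design text, holds inclusion and exclusion reads per library. Gene counts of all 6 libraries of the experiment were fitted with edgeR 4.0.16 in R 4.3.3 (filterByExpr, TMM, quasi-likelihood test, no replicate block; Benjamini-Hochberg adjustment over 12378 genes). CPM, marker sums included, use total counts times the TMM factor of that fit. Exons needed at least 10 reads in each library and a PSI of 2 to 98 in at least 1; median reads per exon were 145 to 194. For exons, edgeR was run on both read classes after rounding. For introns and splice sites, limma 3.58.1 with a trend was run on the log2 ratio of inclusion to exclusion reads after adding 1 read to each. Calls had an adjusted p below 0.05 and, in splicing, a difference of 10 points or more. The edgeR gene test and the exon tests, limma included, were tried on simulated data. DESeq2 was not, and limma was not tried on simulated introns or splice sites. Named are the 12 largest called changes per direction with a mean of at least 1 CPM and groups apart, the targets and called list members; for exons the 12 of smallest p per direction with at least 10 points, and for introns and sites 4. Microexons at least 20 points apart and the promoters were chosen after their values were seen. Predicted genes were counted, not named. The members and lists were chosen with earlier results of these data known. Alternatives were DESeq2 1.42.0, other scaling and filters, the 4 knockdown libraries alone, a replicate block and leaving out each library. The 14 further per-library columns of these tables were not used. A few results that the naming rule covers are not reported here.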

Additional observations from a re-analysis of the deposited data

How the results depend on the processing

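The gene count of 1374 was 1142 to 1470 under other scaling, no filter, the 4 knockdown libraries alone or without a control library. It was 2422 with DESeq2, 306 when a 2-fold change was also required, and 0 to 1179 when 1 library was left out. With the letters a and b as a replicate block it was 5191. Libraries of equal letter deviated together in every pair of groups, with r = 0.636 between siZfp871 and siSrrm4. It was 0.662 between siZfp871 and control and 0.749 between siSrrm4 and control. With 2 letters and no label that says what a letter marks, the pairing is only a hint from the data. Under the block, higher calls were 9 of 17 SR, 11 of 28 hnRNP and 10 of 40 core spliceosome genes. When 1 library was left out, the log2 fold change of Srrm4 ran from 0.74 to 0.99 and that of Zfp871 from -2.19 to -1.68. All 24 genes named by size kept their direction under every alternative; 79 of their 144 fits without 1 library lost the call, as did 1 with the 4 knockdown libraries. The exon count of 0 was 169 by the likelihood ratio test and 86 with a quasi-Poisson variance, an alternative added after seeing the data, and 0 when any 1 library was left out. The likelihood ratio count, also followed after seeing the data, was 304 with the replicate block and 63 to 178 without 1 library. The intron count of 7 was 4 at 20 reads, 12 with the 4 knockdown libraries, 13 with the replicate block and 3 to 10 without 1 library; the splice site count of 2 was 0 to 2. The microexon median was 0.242 points within the letter b and 0.434 to 0.561 without 1 library. The causes of these shifts were not tested.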

Other observations

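Tropomyosin 1 differed in expression and in splicing at once. Its gene Tpm1 rose in siZfp871 (0.91, edgeR adjusted p = 0.0319), and 2 exons of 76 nt each, which tropomyosin genes use as alternatives of each other, differed in opposite directions. One had a PSI of 47.3 and 43.8 in siZfp871, 33.5 and 27.2 in siSrrm4 and 35.5 and 32.9 in control (15.2 points, likelihood ratio adjusted p = 0.00317). The other had 50.1 and 53.6 in siZfp871, 64.3 and 72.1 in siSrrm4 and 63.5 and 65.0 in control (-16.3 points, likelihood ratio adjusted p = 0.00732). In both, siZfp871 stood apart from the other groups. Neither exon passed the quasi-likelihood test, and Tpm1 was chosen here after its values were seen.

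Synaptic genes that differed in expression and in an exon included Nrxn2 and Napb. Nrxn2, a presynaptic adhesion receptor, rose in siZfp871 (1.06), and a 62 nt exon had a PSI of 87.3 and 88.9 in siZfp871, 75.0 and 63.9 in siSrrm4 and 85.6 and 76.4 in control. Napb, which recycles SNARE complexes, rose (0.94), and a 47 nt exon had 87.6 and 87.7 in siZfp871, 76.1 and 69.7 in siSrrm4 and 97.3 and 98.01 in control. Napb is a case in which the order of the microexons, with control highest and siSrrm4 lowest, was seen in an exon longer than 27 nt. These genes were also picked after their values were seen.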
